A study of Mus musculus with 6 samples.

Results

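The 10 genes described here encode the 5 Rel family subunits of the transcription factor NF-kappaB (Nfkb1, Nfkb2, Rel, Rela and Relb) and 5 inhibitor-of-kappaB (IkappaB) proteins (Nfkbia, Nfkbib, Nfkbid, Nfkbie and Nfkbiz). They were taken by gene name from a table of 55536 genes, and all 10 were found and were expressed highly enough to be tested among 14318 genes. RNA had been sequenced from mouse T cells of lymph nodes after 2 h with disulfiram (DSF, 3 libraries) or with its solvent dimethyl sulfoxide (DMSO, 3 libraries). The cells were primary OT-I T cells, which carry a transgenic receptor for an ovalbumin peptide, labelled wild type in genotype. Both groups were kept in RPMI 1640 medium with fetal bovine serum, 2-mercaptoethanol and non-essential amino acids. Disulfiram is a thiuram disulfide that inhibits aldehyde dehydrogenases. The labels give neither its concentration, nor the age of the mice, nor whether the cells had been stimulated. The labels call the libraries biological replicates without naming animals or cultures, so the p-values measure the spread between these libraries, which may be technical. No column of the table names a treatment, so every direction depends on taking its code DF for DSF and its code DO for DMSO.

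NF-kappaB is a dimer of Rel family proteins. In a cell at rest the classical IkappaB proteins hold it in the cytoplasm. A signal from the T cell receptor passes through the kinase PKC-theta and adaptor proteins to the IkappaB kinase (IKK), which marks IkappaB for destruction so that the dimer enters the nucleus. Several of the genes that it then switches on encode its own subunits and inhibitors. The atypical IkappaB proteins encoded by Nfkbid, Nfkbiz and Bcl3 act in the nucleus, on dimers at DNA, and are not simple cytoplasmic anchors.

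Promoter sequence is shown for the 2 genes that fell with DSF and, beside them, for the gene that rose furthest and for Nfkbia, a standard NF-kappaB target gene. Each window runs from 250 bases before to 50 bases after a RefSeq gene start in GRCm38.p6, 5′ to 3′ on the strand of the gene. Capitals mark matches to the NF-kappaB consensus motif, searched on both strands. The windows are Rel at chr11:23770920-23771219 on the minus strand, the second of 3 Nfkbid windows at chr7:30422156-30422455 on the plus strand, the first of 3 Nfkb2 windows at chr19:46304487-46304786 on the plus strand, and Nfkbia at chr12:55492598-55492897 on the minus strand.
Rel: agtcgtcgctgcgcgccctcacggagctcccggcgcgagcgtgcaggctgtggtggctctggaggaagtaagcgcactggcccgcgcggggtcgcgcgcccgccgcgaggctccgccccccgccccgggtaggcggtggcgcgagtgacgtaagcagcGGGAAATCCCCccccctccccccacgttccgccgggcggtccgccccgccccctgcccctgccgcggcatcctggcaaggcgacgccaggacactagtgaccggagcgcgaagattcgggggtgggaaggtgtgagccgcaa
Nfkbid: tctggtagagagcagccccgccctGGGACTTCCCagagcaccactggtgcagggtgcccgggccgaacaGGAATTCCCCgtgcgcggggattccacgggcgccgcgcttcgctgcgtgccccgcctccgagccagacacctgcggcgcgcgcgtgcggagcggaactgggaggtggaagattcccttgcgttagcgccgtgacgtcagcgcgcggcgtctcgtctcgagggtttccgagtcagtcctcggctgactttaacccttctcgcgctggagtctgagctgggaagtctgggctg
Nfkb2: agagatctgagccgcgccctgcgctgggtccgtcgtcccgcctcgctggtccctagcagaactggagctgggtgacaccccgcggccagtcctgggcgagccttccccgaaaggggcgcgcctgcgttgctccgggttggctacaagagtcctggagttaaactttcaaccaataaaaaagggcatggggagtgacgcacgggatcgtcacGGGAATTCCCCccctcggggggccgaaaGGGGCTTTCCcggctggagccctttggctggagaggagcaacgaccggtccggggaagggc
Nfkbia: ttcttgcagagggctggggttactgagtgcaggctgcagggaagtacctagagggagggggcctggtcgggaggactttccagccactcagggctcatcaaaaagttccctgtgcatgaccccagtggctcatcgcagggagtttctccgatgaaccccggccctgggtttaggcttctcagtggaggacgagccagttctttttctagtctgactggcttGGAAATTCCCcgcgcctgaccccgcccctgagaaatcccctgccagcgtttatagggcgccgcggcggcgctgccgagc

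In the Rel window a pair of matches overlapped, shifted by 1 base, the first starting 92 bases before the gene start. In the Nfkbid window GGGACTTCCC started 226 bases before the RefSeq start of that window and GGAATTCCCC 181 bases before it. By the annotation used for positions Nfkbid begins at 30421732, so this window lies inside the gene. The Nfkb2 window held an overlapping pair starting 39 bases before the RefSeq start of that window and GGGGCTTTCC starting 11 bases before it. This window too lies inside the annotated gene, which begins at 46304320. The Nfkbia window held GGAAATTCCC starting 29 bases before the gene start. The other 2 Nfkbid windows, 1 of which spans the annotated beginning of the gene, held no match. The other 2 Nfkb2 windows held 2 and 1, but they overlap and share the same GGGACTTTCC site. Both genes that fell thus have the motif in a window, for Nfkbid only in a window inside the annotated gene. Nfkb2, among the 3 genes that rose, also has it, in windows inside the annotated gene. Nfkb1 had no window at hand. Windows were at hand for 7 of the 10 genes, and the motif was in at least 1 window of 5 of them, Nfkbie being the fifth, and in none for Nfkbib and Rela. Over all genes with a window, 9.55% of 27025 had the motif in at least 1. Another motif of the same length, GGG, then any 2 bases, then TTTCC, also searched on both strands and free to overlap the consensus, was in windows of 3 of the 7 genes, Nfkb2, Nfkbia and Rel, against 1.89% of all genes. A match describes the letters only, and no binding was measured here.

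The libraries held 18082264 to 20951998 counts with DSF and 18528236 to 21893720 with DMSO. The 10 genes had between 384 and 12368 counts in every library, far above the floor of 3 counts. The T cell label was checked against marker genes. In TPM (transcripts-per-million units), a level per length that allows genes to be compared, Cd3e averaged 222.5 with DSF and 227 with DMSO, and Cd8a averaged 162.7 with DSF and 190 with DMSO, while Cd4 averaged 0.733 with DSF and 0.53 with DMSO. The 10 T cell markers summed to 2399 to 2456 CPM (counts-per-million units) with DSF and 2570 to 2623 with DMSO. By the edgeR test used below, Cd2 was higher with DSF and Cd8a, Trac, Cd247 and Cd3g were lower, 5 of the 10, against 22.9% of all genes tested. The 12 B cell markers summed to 243 to 258 CPM with DSF and 258.5 to 273 CPM with DMSO, and of 11 tested only Ighm was lower. The 14 myeloid and dendritic cell markers summed to 66.4 to 69.8 CPM with DSF and 74.0 to 76.7 CPM with DMSO, with Siglech at 0 in every library, and of 11 tested Xcr1 and Mpeg1 were lower. The sums of these 3 lists were lower with DSF without overlap. The 6 CD4 and regulatory T cell markers summed to 60.4 to 66.5 CPM with DSF and 55.8 to 60.0 CPM with DMSO, without overlap, and of 5 tested Cxcr5 and Zbtb7b passed as higher and Ikzf2 as lower; each of the 3 has exons that overlap an opposite-strand gene. None of the 3 passed by limma on log2 TPM with a pseudocount of 1 or 0.1, where the log2 fold change of Zbtb7b was 0.03 with either pseudocount, against 0.27 by edgeR. The sums of the natural killer cell markers and of the stromal, endothelial and erythroid markers overlapped. Of 4 natural killer markers tested Gzma was lower, and most of that sum was Nkg7, at a mean of 275.3 CPM with DSF and 270.3 CPM with DMSO. The part of such cells in the results below was not tested. Leaving out DSF library 3 ended the edgeR call of Ighm (adjusted p = 0.113) and leaving out DSF library 1 that of Ikzf2 (adjusted p = 0.0824). Mpeg1 lost its edgeR call when DSF library 1 (adjusted p = 0.0603), DSF library 3 (0.246), DMSO library 1 (0.0826) or DMSO library 3 (0.177) was left out. Gzma lost its edgeR call when DSF library 1 (adjusted p = 0.0599), DSF library 3 (0.0958) or DMSO library 1 (0.0952) was left out. By DESeq2 Mpeg1 and Gzma did not pass. By limma on log2 TPM with either pseudocount Trac, Ighm, Mpeg1 and Gzma did not pass. In bulk RNA, fewer cells of a type and less RNA per cell cannot be told apart.

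By edgeR's quasi-likelihood test over all genes, 5 of the 10 genes passed an adjusted p of 0.05 (Benjamini-Hochberg), against 22.9% of all genes tested. Nfkb1, Nfkb2 and Rela rose (11.6% of all genes did), and Rel and Nfkbid fell (11.3% did). The falls were the larger changes: Nfkbid to 0.645 and Rel to 0.743 of the DMSO level, whereas the 3 rises were between 1.09-fold and 1.16-fold. None of the 10 reached a 2-fold change. The groups of libraries did not overlap in CPM for 6 of the 10 genes, against 35.4% of all genes.

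**Figure D1:**
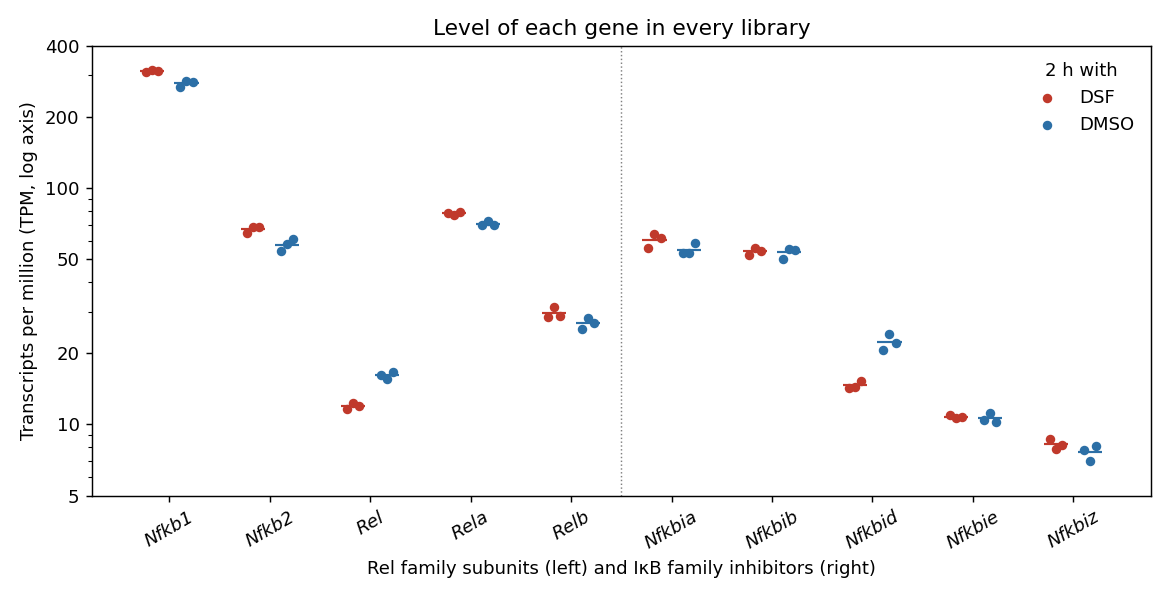
Level of each gene in TPM (log axis) in every library, with DSF in red on the left and DMSO in blue on the right of each pair; short bars are group means (n = 3 each). Rel and Nfkbid lie lower with DSF without overlap, and Nfkb1, Nfkb2 and Rela lie higher.

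Nfkb1 had by far the highest level of the 10. It encodes a precursor whose processed form lacks an activation domain and pairs with the other subunits, while the unprocessed form acts as an inhibitor. It stood at 311.4, 316 and 313.7 TPM in the DSF libraries, against 269.2, 282.9 and 282.5 TPM in the DMSO libraries. All DSF libraries were above all DMSO libraries, and those with DSF were close together. The rise was 1.09-fold, with a log2 fold change of 0.13 ± 0.03 (SE; edgeR's adjusted p = 0.00286). The gene (ENSMUSG00000028163) lies on chromosome 3 at 135584655 to 135691547 of GRCm38.

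Nfkb2 encodes the precursor of the non-canonical pathway, which is cut when the kinase NIK is active. It stood at 64.51, 68.55 and 68.61 TPM with DSF, against 54, 57.75 and 60.94 TPM with DMSO, again with no overlap. Its log2 fold change of 0.21 ± 0.04 (SE) was the largest rise among the 10 genes (edgeR's adjusted p = 0.000384). The gene (ENSMUSG00000025225) lies on chromosome 19 at 46304320 to 46312385, and its exons overlap those of Psd and AC114539.1 on the opposite strand. No source used here says whether reads were counted by strand, so this value is uncertain to that extent.

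Rel encodes c-Rel, the subunit that lymphocytes depend on for full activation and interleukin 2 production. It fell. The DSF libraries held 11.67, 12.36 and 11.98 TPM and the DMSO libraries 16.17, 15.64 and 16.62 TPM, and the highest DSF library was well below the lowest DMSO library. The log2 fold change was -0.43 ± 0.05 (SE; edgeR's adjusted p = 1.34e-08), and by p-value the gene stood at place 367 among the 14318 tested. Rel (ENSMUSG00000020275, chromosome 11, 23736847 to 23770970) overlaps the exons of no other annotated gene.

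Rela encodes p65, the main activating partner of the Nfkb1 product. It stood at 78.47, 77.34 and 79.21 TPM with DSF, against 69.67, 72.82 and 69.84 TPM with DMSO, with no overlap. The log2 fold change was 0.12 ± 0.04 (SE; edgeR's adjusted p = 0.029). Rela (ENSMUSG00000024927, chromosome 19, 5637483 to 5648130) no longer passed when DSF library 2 (adjusted p = 0.0705), DSF library 3 (0.113) or DMSO library 3 (0.0792) was left out. Relb, the partner of the Nfkb2 product in the non-canonical pathway, had 28.42, 31.34 and 28.69 TPM with DSF and 25.45, 28.11 and 26.93 TPM with DMSO. Those values did not overlap, but in CPM the groups did, and the gene did not pass (log2 fold change 0.11 ± 0.06 SE, edgeR's adjusted p = 0.162). Its log2 fold change was 0.06 when DSF library 2 was left out (adjusted p = 0.584).

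Nfkbid encodes IkappaBNS, a nuclear IkappaB protein first described in thymocytes. Of the 10 genes it changed most. It stood at 14.26, 14.37 and 15.2 TPM with DSF, against 20.72, 24.17 and 22.11 TPM with DMSO. Every DSF library lay below every DMSO library, and the spread was wider with DMSO. The log2 fold change was -0.63 ± 0.07 (SE; edgeR's adjusted p = 6.5e-09), at place 332 among all genes by p-value. The gene (ENSMUSG00000036931, chromosome 7, 30421732 to 30428746) overlaps the exons of no other annotated gene.

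Nfkbiz, which encodes IkappaB-zeta, the other nuclear IkappaB protein of the set, stood at 8.71, 7.84 and 8.16 TPM with DSF and 7.79, 6.99 and 8.07 TPM with DMSO. The groups overlapped and the gene did not pass (log2 fold change 0.07, approximate 95% interval -0.08 to 0.21; edgeR's adjusted p = 0.617). Nfkbid fell, while the interval for Nfkbiz held no fall of that size. The upper end of that interval was as large as the rise of Nfkb2. The difference between the changes of Nfkbid and Nfkbiz was not tested.

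The classical inhibitors did not pass. Nfkbia encodes IkappaB-alpha, which NF-kappaB itself induces and which ends the response. It had 56.03, 63.68 and 61.47 TPM with DSF and 53.13, 53.2 and 58.51 TPM with DMSO. The groups overlapped in TPM but not in CPM, at a log2 fold change of 0.13 ± 0.05 (SE; edgeR's adjusted p = 0.0678). It passed without DMSO library 3 (adjusted p = 0.017). The gene (ENSMUSG00000021025) lies on chromosome 12 at 55489410 to 55492647. Nfkbib, which encodes IkappaB-beta, averaged 54.1 ± 1.84 TPM with DSF and 53.5 ± 2.72 TPM with DMSO (SD, n = 3 each). Nfkbie, which encodes IkappaB-epsilon, averaged 10.8 ± 0.133 TPM with DSF and 10.6 ± 0.501 TPM with DMSO. The log2 fold change was -0.02 for Nfkbib (approximate 95% interval -0.12 to 0.09; edgeR's adjusted p = 0.876) and -0.05 for Nfkbie (-0.19 to 0.09; edgeR's adjusted p = 0.683). Exons of Nfkbib overlap Sirt2 and Ccer2 on the opposite strand.

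**Figure D2:**
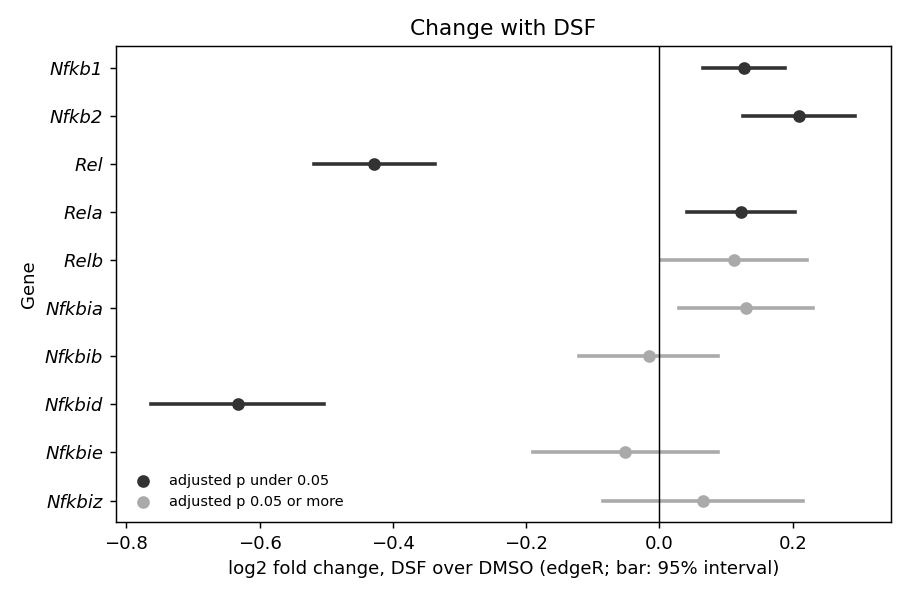
Log2 fold change of DSF over DMSO for each gene (edgeR), with an approximate 95% interval; dark points passed at an adjusted p under 0.05. Rel at -0.43 and Nfkbid at -0.63 stand to the left of 0, and Nfkb1, Nfkb2 and Rela to the right between 0.12 and 0.21.

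By mean TPM the 10 genes had the same order with DSF and with DMSO: Nfkb1, Rela, Nfkb2, Nfkbia, Nfkbib, Relb, Nfkbid, Rel, Nfkbie and Nfkbiz. Neighbours Nfkb2 and Nfkbia, and Nfkbia and Nfkbib, overlapped between libraries with DMSO, and no neighbours overlapped with DSF. The 5 subunits summed to 494.5 to 505.6 TPM with DSF and 434.5 to 457.2 TPM with DMSO. Of that sum Nfkb1 made up 62.6% ± 0.287 with DSF and 61.9% ± 0.0629 with DMSO, and Rel made up 2.4% ± 0.0434 with DSF and 3.59% ± 0.155 with DMSO (SD, n = 3 each). The 5 IkappaB genes are called inhibitors here by family name only. They summed to 142.2 to 152.5 TPM with DSF and 142.4 to 153.8 TPM with DMSO, so this sum overlapped. In CPM, which is not per length, the same sum was 166.3 to 171.9 with DSF and 173.9 to 180.6 with DMSO, lower with DSF without overlap. Within the TPM sum Nfkbid made up 9.87% ± 0.391 with DSF and 15.0% ± 0.907 with DMSO, and Nfkbia made up 40.8% ± 1.21 with DSF and 36.9% ± 1.44 with DMSO (SD, n = 3 each). The summed inhibitors stood at 0.287 to 0.302 of the summed subunits with DSF and at 0.328 to 0.337 with DMSO. In CPM this ratio averaged 0.173 with DSF and 0.193 with DMSO. In TPM the sum of the inhibitors overlapped, while that of the subunits was higher with DSF. The unprocessed product of Nfkb1, the largest part of the subunit sum, itself acts as an inhibitor. The ratio is therefore not a balance of inhibition against activity. These sums, shares and ratios are descriptions with no test.

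**Figure D3:**
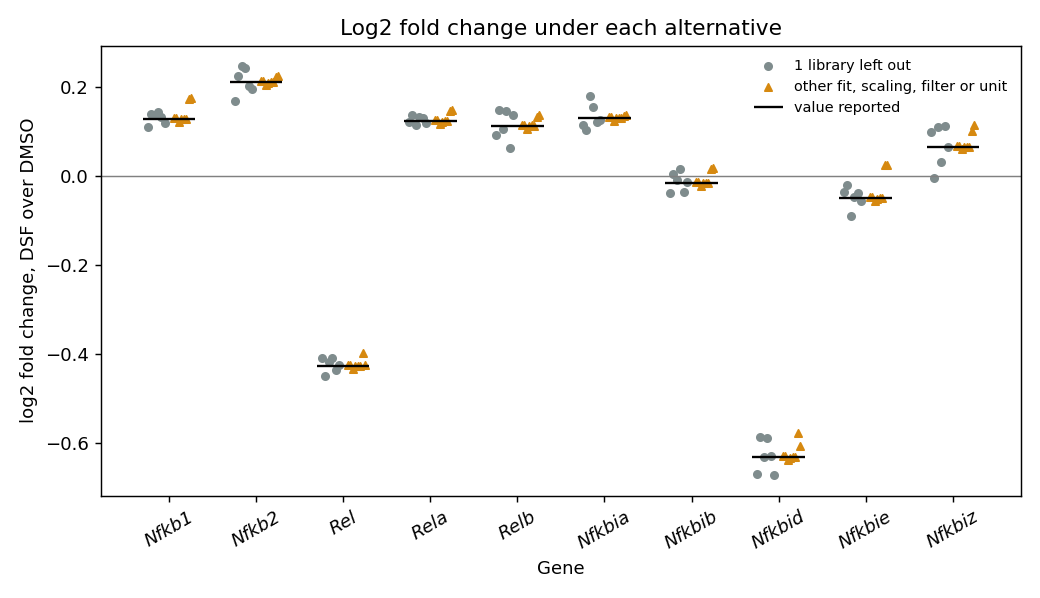
Log2 fold change of DSF over DMSO for each gene as reported (black bar), with each of the 6 libraries left out in turn (grey circles) and under the 8 other fits, scalings, filters or units (orange triangles). Rel and Nfkbid stay at or below -0.40 and -0.58, while the signs of Nfkbib, Nfkbie and Nfkbiz change.

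Some genes of the signalling route to these proteins also changed, in both directions. Of 12 genes of the IKK complex and its upstream kinases, 4 were higher and 2 lower with DSF and 6 did not pass (6 of 12 called, against 22.9% of all genes tested), at a median log2 fold change of -0.04, against -0.003 over all tested genes. Map3k8, which encodes the kinase TPL2 that the Nfkb1 precursor binds and restrains, fell to 15.07, 14.66 and 17.2 TPM with DSF, against 18.19, 18.09 and 20.86 TPM with DMSO (log2 fold change -0.33 ± 0.06 SE, edgeR's adjusted p = 9.73e-05). Map3k3 and Ikbkb, the gene for the catalytic subunit IKK-beta, rose 1.16-fold and 1.11-fold, and Ikbkb lost its call when DSF library 3 was left out (edgeR's adjusted p = 0.0513). Map3k14, the gene for NIK, did not pass (15.4 ± 1.24 TPM with DSF and 15.1 ± 0.364 TPM with DMSO, SD, n = 3 each). Its exons overlap those of 1700028N14Rik on the same strand. The count of changed genes in this list, not all of them kinases, fell to 3 without DSF library 3. It fell to 4 when DSF library 1 or 2 or DMSO library 2 or 3 was left out. By limma on log2 TPM with a pseudocount of 1 or 0.1 it was 0.

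Among genes that act between the T cell receptor and IKK, Bcl10 rose and Prkcq and Malt1 fell. Prkcq, the gene for PKC-theta, had 45.62, 47.4 and 45.52 TPM with DSF, against 58.48, 56.73 and 59.37 TPM with DMSO. Bcl10, the gene for a signalling adaptor, moved the other way, with 41.37, 43.39 and 42.47 TPM with DSF, against 32.21, 33.64 and 34.38 TPM with DMSO. Their log2 fold changes were -0.37 ± 0.04 and 0.31 ± 0.05 (SE; edgeR's adjusted p = 1.54e-08 and 1.15e-05). Malt1, the gene for a protease that binds the Bcl10 product, fell to 0.889 of its DMSO level (edgeR's adjusted p = 0.0015).

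Among 9 genes for TRAF and cIAP adaptors, Traf3 and Birc3 were higher and Traf5 lower, at a median log2 fold change of 0.03. That was 33.3% called, against 22.9% of all genes tested. Traf3, whose product directs the destruction of NIK, rose 1.22-fold, and Traf5 fell to 0.653 (log2 fold change -0.61 by edgeR). By limma on log2 TPM with a pseudocount of 1 or 0.1 the log2 fold change of Traf5 was -0.42 and -0.43. It did not pass there (adjusted p = 0.0507 and 0.05001). The call of Birc3, at 1.09-fold, was lost when DSF library 1, DSF library 3 or DMSO library 3 was left out (edgeR's adjusted p = 0.128, 0.122 and 0.138). Of 9 genes in a list of A20 and deubiquitinase brakes, not all encoding deubiquitinases, Tnfaip3 and Tax1bp1 were higher and 0 lower. This share of 22.2% was near the 22.9% of all genes tested. Tnfaip3, the gene for A20, had 39.79, 39.54 and 40.11 TPM with DSF, against 28.29, 30.08 and 29.32 TPM with DMSO (log2 fold change 0.45 ± 0.04 SE, edgeR's adjusted p = 1.04e-09). Tax1bp1 lost its call when DSF library 1 was left out (edgeR's adjusted p = 0.0709), its exons overlap Gm43966 on the opposite strand, and that list's count was 3 without DSF library 2. None of 8 genes for the ubiquitination of IkappaB, among them Btrc and Fbxw11 for both forms of beta-TrCP, passed, nor did any at an unadjusted p under 0.05 by edgeR, or by DESeq2 at an adjusted p under 0.05.

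Of 9 other regulators of Rel proteins, Bcl3, Nkiras1 and Peli1 were lower and 0 higher, at a median log2 fold change of -0.11. Over all genes tested, 11.3% were lower and 11.6% higher. Bcl3, which encodes the third nuclear IkappaB protein, had 16.43, 14.98 and 16.85 TPM with DSF, against 18.88, 20.57 and 21.07 TPM with DMSO. The groups did not overlap, and the log2 fold change was -0.29 ± 0.08 (SE; edgeR's adjusted p = 0.00608), which no longer passed once DMSO library 3 was left out (adjusted p = 0.0513). Exons of Bcl3 overlap Gm16175 and those of Nkiras1 overlap Rpl15 and Ube2e1, all on the opposite strand. Nkiras1 lost its call when DSF library 2, DMSO library 1 or DMSO library 2 was left out (edgeR's adjusted p = 0.107, 0.0503 and 0.0784). Nkiras1 also did not pass by DESeq2 (adjusted p = 0.0663). By limma on log2 TPM with a pseudocount of 1 or 0.1, neither Nkiras1 nor Peli1 passed. Peli1 lost its call when any single DSF library (edgeR's adjusted p = 0.104, 0.0994 and 0.0516) or DMSO library 3 (0.116) was left out. The list's count was 1 without DMSO library 3 or DSF library 2, and 2 without each other library.

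**Figure D4:**
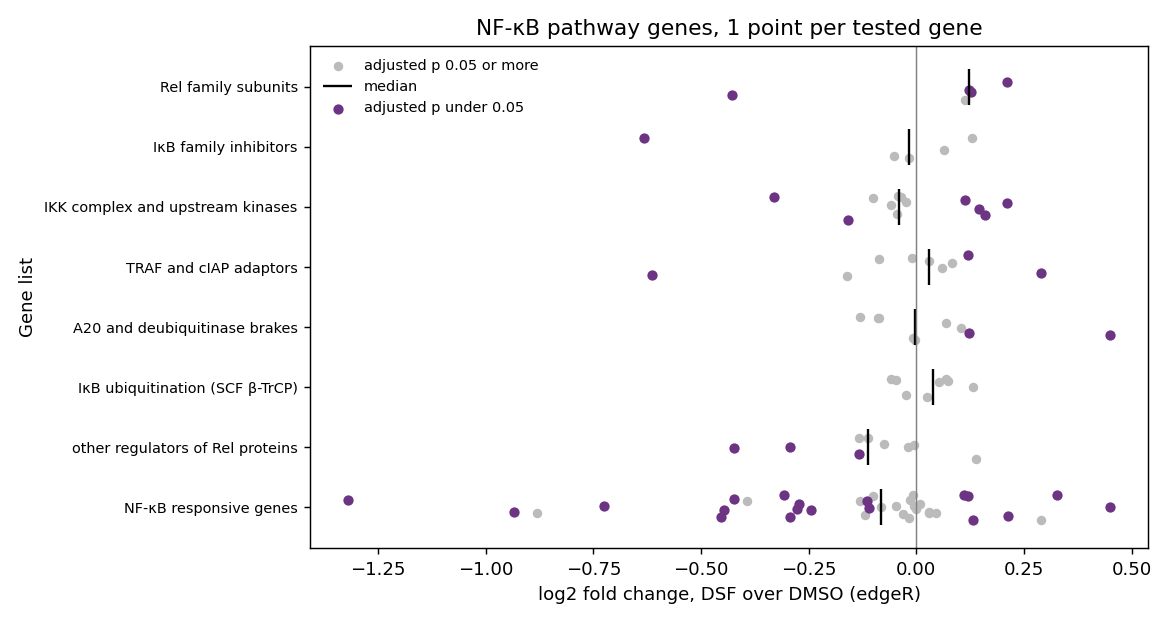
Log2 fold change of DSF over DMSO for each tested gene of the NF-kappaB lists named on the vertical axis, with genes at an adjusted p under 0.05 in purple and the median of each list as a black bar. Called genes stand on both sides of 0 among the subunits, the IKK list, the TRAF and cIAP adaptors and the responsive genes. The furthest point to the left is Ccl4 at -1.32.

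Genes that NF-kappaB is known to induce were also split. Of 40 listed, 37 were tested, 6 were higher and 13 lower with DSF and 18 did not pass (over all genes tested, 11.6% were higher and 11.3% lower), at a median log2 fold change of -0.08. The genes with the smallest p-values among those that fell were Myc, to 44.8 ± 3.16 TPM with DSF, against 72.2 ± 3.4 TPM with DMSO, and the chemokine gene Ccl4, to 13.2 ± 2.36 TPM with DSF, against 32.5 ± 0.0985 TPM with DMSO (SD, n = 3 each). Tnfaip3, given above, had the largest rise among the called genes. Their log2 fold changes were -0.73 ± 0.05 for Myc and -1.32 ± 0.13 for Ccl4 (SE; edgeR's adjusted p = 5.74e-13 and 2.14e-09). Most of these genes have other activators besides NF-kappaB. The count of 19 changed genes was 12 without DSF library 3 and 12 by limma on log2 TPM.

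The genes whose profile over the 6 libraries was most like that of Nfkbid, by the root mean square difference of centred log2 CPM, were Traf5, Nek6, Egr3, Gfi1 and Tbxa2r, at 0.0359 to 0.0509. For Nfkb2 they were Cenpt, Wrb, Dennd5a, Scrib and Cic, at 0.0111 to 0.0233. Traf5, a signalling adaptor of tumour necrosis factor receptors, averaged 14.7 ± 0.311 CPM with DSF and 22.5 ± 1.02 CPM with DMSO. Egr3, an early response transcription factor of T cell receptor signalling, averaged 28.6 ± 2.22 CPM with DSF and 45.6 ± 1.79 CPM with DMSO (SD, n = 3 each). Traf5, Nek6, Gfi1, Cenpt and Wrb each share exon sequence with an opposite-strand gene, which leaves their counts uncertain. Exons of Traf5 also overlap Mir3473c on the same strand. Likeness here reflects mainly the gap between the groups and is a description.

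The authors' deposited table of fold changes, made with DESeq2 by its title, gives the same 10 genes in 3 comparisons, among them 2 with a group coded DC that the labels used here do not explain and of which no library was analysed here. For DF over DO, the comparison described above, 5 of the 10 genes had an adjusted p under 0.05 in that table, against 8.54% of the 27139 genes tested there. For DC over DF 4 of the 10 did, against 7.11% of 26894. For DC over DO 0 of the 10 did by DESeq2, against 0.345% of 26951, with 0 also at an unadjusted p under 0.05. These shares are over a larger set of genes than the filter kept here, so they cannot be set beside the edgeR shares given earlier. In the authors' deposited table, from which all values of this paragraph come, Rel had log2 fold changes of -0.43 for DF over DO, 0.42 for DC over DF (adjusted p = 2.16e-13) and 0.001 for DC over DO. Nfkbid had -0.63, 0.57 (adjusted p = 4.93e-08) and -0.06 in the same order of comparisons in the authors' deposited table. In that deposited table by the authors, Nfkb1 had 0.13, -0.19 (adjusted p = 4.77e-12) and -0.05, and Nfkb2 had 0.21, -0.14 (adjusted p = 0.0136) and 0.08. Rela had 0.12, -0.12 (adjusted p = 0.0701) and 0.01 there, and its DC over DF value did not pass. The other 5 genes did not pass in any of the comparisons in the authors' deposited table. Each pair of these comparisons shares a group of libraries, DF, DC or DO, so their values are not independent. The authors' own mark of significance, given in the deposited table to 189 genes for DF over DO, all with a log2 fold change of at least 1.0 in size, was on none of the 10.

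**Figure D5:**
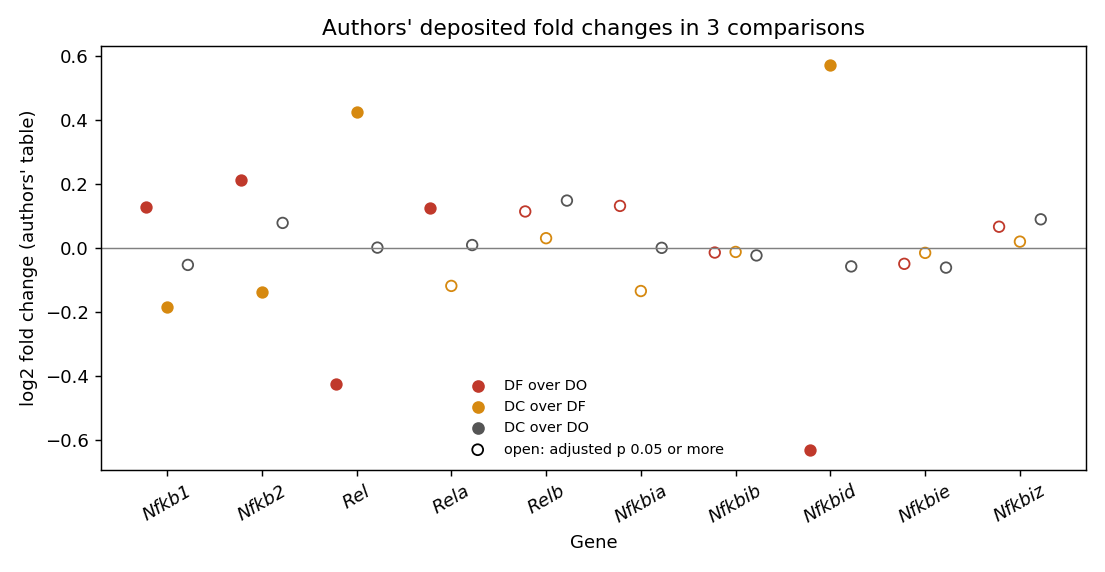
Log2 fold changes of the 10 genes in the authors' deposited table for DF over DO, DC over DF and DC over DO; filled points have an adjusted p under 0.05 in that table. Rel and Nfkbid stand at -0.43 and -0.63 in the first comparison, at 0.42 and 0.57 in the second, and near 0 in the third.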

How the data were processed

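Libraries of the 3 DSF and 3 DMSO samples were prepared with a SMARTER kit, per the labels' protocols. The submitters' processing notes name the builds GRCm38 and mm10. No source used here names the aligner, counter, annotation or strand setting. The deposited table gives, for each gene and library, an expected count without normalisation (12.1 to 12.9% of a library's values are not whole) and TPM, with group means of TPM by the authors. It also gives the authors' fold changes, log2 fold changes, p-values and adjusted p-values, and a further deposited table gives them for comparisons with the code DC. Both files are titled as DESeq2 output.

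Columns A and B were tied to groups through the group means: DO matched the mean of the A columns and DF that of the B columns within 0.0001 TPM in 55536 of 55536 genes, whereas swapping them matched 28853. DO was then taken as DMSO and DF as DSF, and the digits as replicate numbers; 0 columns with library values went unused.

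The estimated counts were rounded. The filterByExpr step kept 14318 genes and dropped 41218. TMM factors lay between 0.995 and 1.01. The test was the robust quasi-likelihood F test of edgeR 4.0.16 (R 4.3.3), two-sided, on group alone, with Benjamini-Hochberg adjustment over all tested genes. The SE is the size of the log2 fold change divided by the root of F, and 95% intervals are normal approximations. CPM use the TMM scaling. The scripts were tested on simulated data. No replicate pair agreed within counting error (chi-square over degrees of freedom 2.16 to 4.01). Alternatives were DESeq2 1.42.0, limma 3.58.1 on log2 TPM, other scalings, no filter, a replicate block, a fit without robust estimation and leaving out each library.

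The members and lists were chosen with earlier results of these data known. The rule for named genes took the 10 members, up to 3 called genes with the smallest p-values from each list, Bcl3, Map3k14, Map3k8, Tnfaip3 and a further gene that is not reported here, and the 5 genes of at least 5 CPM most like the member with the largest rise and the one with the largest fall. That gave 47 genes, 39 of them called; others were named after their values were seen. Positions and exon overlaps are from GENCODE M21, which holds all 55536 identifiers, and promoters from RefSeq tables of GRCm38.p6. A planned description of the proteins was not run. The floor of 3 counts covers counting error only.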

Additional observations from a re-analysis of the deposited data

How the results depend on the processing

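Each of the 10 genes was recomputed under 14 alternatives. Rel (-0.45 to -0.40), Nfkbid (-0.67 to -0.58), Nfkb1 (0.11 to 0.17) and Nfkb2 (0.17 to 0.25) kept their direction and their call in all 14, with adjusted p up to 0.00973, 0.0036, 0.0321 and 0.0481. Of the 10 genes 5 changed as reported, and 4 to 6 did under the alternatives. The number of genes that rose was 3, and 2 with no filter, by limma on log2(TPM + 0.1), and at the low end of the range of 2 to 3 with 1 library left out, each time through the loss of Rela (adjusted p = 0.0562 with no filter and 0.0518 by limma on log2(TPM + 0.1)). Log2 fold changes near 0 changed sign: Nfkbib to 0.016 by limma on log2(TPM + 1) and 0.0163 on log2(TPM + 0.1), with a range of -0.0389 to 0.014 when each library was left out, Nfkbie to 0.0231 and 0.0251 and Map3k14 to 0.0256 and 0.0269 by limma with these pseudocounts, and Nfkbiz to -0.006 without DMSO library 2. Over all genes 3276 changed, against 1348 and 1338 by limma on log2(TPM + 1) and log2(TPM + 0.1) and 2555 by DESeq2. Of the pathway genes besides the 10, 33 changed, 16 by limma with either pseudocount, and 22 to 30 with a library left out. For the other named genes, 446 alternatives kept direction and call, 70 lost the call and 2 changed sign; the cause was not tested. In CPM in place of TPM, Nfkb1 made up 59.7% of the summed subunits with DSF and 58.3% with DMSO, Rel made up 7.01% with DSF and 10.1% with DMSO, and Nfkbid made up 13.4% of the summed inhibitors with DSF and 19.97% with DMSO, since CPM does not divide by length. The other motif searched in promoters was found for 3 genes in place of 5.

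With the replicate number as a block, 3829 genes changed, and 6 of the 10 genes, Nfkbia (adjusted p = 0.0332) being added, and the block ended no call of the 10. Deviations of libraries with the same number correlated at 0.045, 0.035 and 0.055, each the highest for its number and all under 0.1. Those of libraries with different numbers correlated at -0.052 to 0.004. The main fit did not use the numbers, and whether they mark a pairing was not tested. With 3 libraries a group, Rela and Nfkbia, at log2 fold changes of 0.12 and 0.13, lay close to the threshold on either side of it.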
